A study of Mus musculus with 4 samples.

Results

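A set of 10 genes of the pluripotent state and of its exit towards the epiblast were followed in m6A maps of day 4 mouse retinal organoids: Pou5f1, Nanog, Klf4, Klf2, Zfp42, Fgf5, Utf1, Sall4, Lin28a and Lin28b. Retinal organoids are cultured aggregates of pluripotent stem cells that are led towards retina. The genes were chosen by name, and a site counted as theirs where it lay on the gene's strand between the start and end that the deposited site lists give for the gene. All 10 genes held at least 1 site, of 29181 gene features named in the lists, and together they held 686 of 881997 positions. The wild-type (WT) group was 2 libraries of the Rx:GFP line, which reports expression of the eye-field gene Rax (also called Rx) with a green fluorescent protein. The knockout (KO) group was 2 libraries of a Mettl3 KO Rx:GFP line that also harbours HA-METTL3 under doxycycline control. The labels give the treatment of every library as none and record no doxycycline. Both lines were differentiated for 4 days with knockout serum replacement and AGN, and all 4 libraries carry the same batch label. The labels do not say whether the KO line is a single clone, or whether libraries of a group came from separate cultures, so p-values measure only the spread between these samples.

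Pluripotency rests on a set of transcription factors that sustain one another's expression, with OCT4 (the product of Pou5f1) and NANOG at its core. The naive state of the early embryo adds factors such as KLF4, KLF2 and REX1 (Zfp42), and the move to the primed epiblast brings FGF5 up while these fall. N6-methyladenosine (m6A), written on mRNA mainly by METTL3 with METTL14, is known in mouse embryonic stem cells to shorten the lives of transcripts of this kind, and stem cells without METTL3 are known to leave naive pluripotency poorly.

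The assay was GLORI, in which unmodified adenosine is deaminated and read as G while m6A stays A. A site's level is the share of its reads that stayed A. Every listed site has 15 or more reads, 5 or more of them unconverted, a level no lower than 0.1 and a p no higher than 0.004, so a site absent from a list may be converted, methylated below these limits or too thinly covered. The WT lists held 227298 and 288516 sites and the KO lists 230299 and 215850, with a median coverage of 38 to 41 reads a site. Mettl3 itself held 18 and 15 sites in WT and 20 and 21 in KO. Its coverage was 1.01 and 0.801 times that of the median gene in WT and 1.16 and 1.04 times in KO. Reads placed at Mettl3 were thus present in the libraries labelled KO. The labels do not place the deletion, and reads of the HA-METTL3 transgene were not told apart from those of the targeted gene. This level therefore does not check the deletion.

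The 10 genes held fewer listed sites in the KO libraries than in WT, and most of their positions were listed only once. There were 216 and 243 sites in the WT libraries and 169 and 144 in the KO libraries, a mean of 229.5 ± 19.1 (SD, n = 2) against 156.5 ± 17.7 (SD, n = 2). The groups did not overlap, and the KO mean was 0.682 times the WT mean, beside 0.865 times for all sites of the lists. A two-sided exact permutation test gave p = 0.333, the smallest that 2 libraries against 2 allow. Of the 686 positions, 609 (88.8%) stood in 1 list, 70 in 2, 5 in 3 and 2 in all 4; over all positions 91.9% stood in 1 list.

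**Figure D1:**
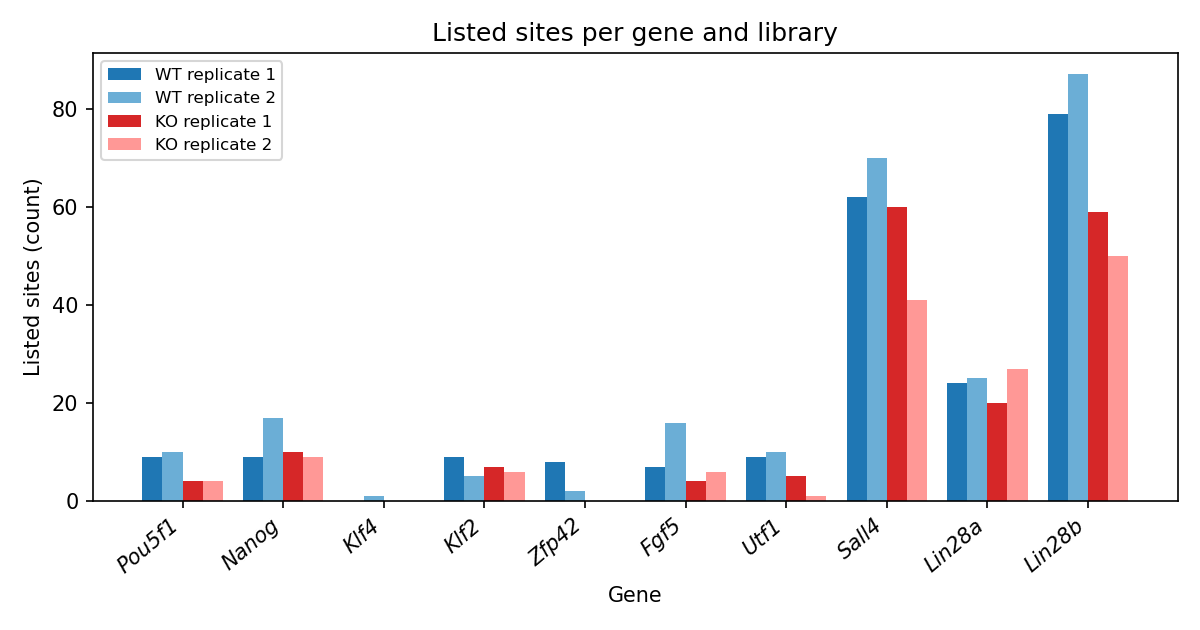
Listed sites (count, vertical axis) in each of the 10 genes (horizontal axis), with 1 bar for each WT and KO library. Zfp42 has bars of 8 and 2 in WT and none in KO, while Lin28a ranges from 20 to 27 over both groups.

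Among the core factors, Pou5f1 (ENSMUSG00000024406, chromosome 17, 35816915 to 35821669, plus strand), a POU-family factor required for pluripotency, held 9 and 10 sites in WT and 4 and 4 in KO. Nanog (ENSMUSG00000012396, chromosome 6, 122684448 to 122691592, plus strand), a homeobox factor of the naive network, held 9 and 17 in WT and 10 and 9 in KO. The Pou5f1 counts did not overlap between the groups, whereas those of Nanog did. The share of all genes whose site counts do not overlap was not worked out. Such statements here and below therefore describe the counts only. The lists mark every one of the 27 entries of Pou5f1 and the 45 of Nanog as lying inside an intron, also those near the gene end, so this mark was not read as a property of the sites.

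Of the naive-state factors, Zfp42 (ENSMUSG00000051176, chromosome 8, 43748100 to 43760017, minus strand), a zinc finger gene used as a naive marker, held 8 and 2 sites in WT and no site in either KO list. Klf4 (ENSMUSG00000003032, chromosome 4, 55527143 to 55532466, minus strand), a Krüppel-like reprogramming factor, held a single site, in WT replicate 2, at a level of 0.294 on 17 reads. Klf2 (ENSMUSG00000055148, chromosome 8, 73072877 to 73075500, plus strand), a second Krüppel-like factor of the naive network, held 9 and 5 sites in WT and 7 and 6 in KO. For scale, of 837 genes with 8 to 12 WT sites in all and at least 1 in each WT list, 50 (5.97%) had no KO site. In the reverse direction 8 of 867 genes (0.923%) had none.

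Utf1 (ENSMUSG00000047751, chromosome 7, 139523702 to 139525025, plus strand), a chromatin-bound factor of pluripotent cells, held 9 and 10 sites in WT and 5 and 1 in KO. Fgf5 (ENSMUSG00000029337, chromosome 5, 98402043 to 98424889, plus strand), a secreted growth factor that marks the primed epiblast, held 7 and 16 in WT and 4 and 6 in KO. Utf1 is short and its sites lay close together, 23 of 25 entries within 1000 bases of the gene end, whereas 16 of the 33 Fgf5 entries did so. Neither gene's counts overlapped between the groups, though those of Fgf5 came close (7 in WT, 6 in KO).

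Sall4, Lin28a and Lin28b held most of the sites. Sall4 (ENSMUSG00000027547, chromosome 2, 168590252 to 168609863, minus strand), a zinc finger partner of OCT4, held 62 and 70 in WT and 60 and 41 in KO. Lin28b (ENSMUSG00000063804, chromosome 10, 45252716 to 45362491, minus strand), an RNA-binding protein that blocks the maturation of let-7 microRNAs, held 79 and 87 in WT and 59 and 50 in KO. Its paralogue Lin28a (ENSMUSG00000050966, chromosome 4, 133730641 to 133746152, minus strand), with the same role, held 24 and 25 in WT and 20 and 27 in KO. Only the Lin28a counts overlapped between the groups, and those of Sall4 came close (62 in WT, 60 in KO). The lists attach a site to a nearby feature that need not contain it, and 1 of 233 Sall4 entries, 6 of 96 Lin28a entries and 74 of 275 Lin28b entries carry the gene's own name; the rest were placed by position.

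Sites of clear level were also fewer in KO. With at least 50 reads and a level of at least 0.3, the 10 genes held 16 and 16 sites in WT and 6 and 9 in KO, 0.469 times as many, and all genes 0.448 times (exact permutation test, two-sided, p = 0.333, the smallest possible). Sall4 held 3 and 6 of these in WT and 2 and 5 in KO, Lin28b 6 and 3 in WT and 2 and 2 in KO, and Klf2 3 and 3 in WT and 0 and 1 in KO. At a level of at least 0.5 and the same 50 reads there were 6 and 8 in WT and none in either KO library. Over all genes the ratio was 0.274. On fewer reads the KO lists did hold such levels. Among them were Klf2 73073592 (1.00 on 35 reads) and Lin28b 45302812 (1.00 on 33 reads) in KO replicate 2. Sall4 168607790 stood at 0.833 on 30 reads in KO replicate 1. At levels from 0.1 to 0.3 with the same 50 reads the 10 genes held 88 and 127 sites in WT and 77 and 56 in KO, 0.619 times as many, where all genes held 0.887 times as many. The median level over the sites of these genes was 0.224 and 0.192 in WT and 0.170 and 0.215 in KO, so the groups overlapped.

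Sites seen in both WT libraries were followed into the KO lists; 30 positions in 7 of the genes were shared in this way. Sall4 had 13, Lin28a 5, Pou5f1, Klf2 and Lin28b 3 each, Utf1 2 and Fgf5 1; Nanog, Zfp42 and Klf4 had none. Of the 29 with at least 20 reads in each WT library, 25 (86.2%, Wilson 95% interval 69.4 to 94.5%) were in neither KO list. Over all other genes this held for 18026 of 21608 (83.4%), inside that interval. This interval treats sites as independent, although 13 of the 30 shared sites lie in Sall4. The intervals of single levels given below cover counting error only, since reads may be PCR copies of one molecule.

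Depth in the KO was taken into account through each gene's coverage. A site's expected KO reads were its mean WT reads scaled by the KO to WT ratio of its gene's coverage. At the 6 entries of WT-shared sites that a KO list did hold, the observed reads were 0.452 to 1.38 times those expected. Of the 26 WT-shared sites in neither KO list, 6 had a site listed within 10 bases in KO replicate 1 and 7 in KO replicate 2. With at least 50 expected reads in both KO libraries, 18 of 22 sites (81.8%) were in neither KO list, beside 81.5% over other genes. At their WT level, these 18 would have had 8.07 to 98.5 unconverted reads, where a listing needs 5. Given observed reads down to 0.452 times those expected, the lowest of these counts need not reach 5. A listing also needs a level of at least 0.1, and 13 of the 30 WT-shared sites were under 0.2 in both WT libraries. Sall4 168590433, at 0.104 and 0.139 in WT, is among the 18. How many of the 18 would go unlisted at an unchanged level was not tested. In the reverse direction, of 10 sites listed in both KO libraries with at least 20 reads, 5 were in neither WT list, beside 72.9% over other genes.

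**Figure D2:**
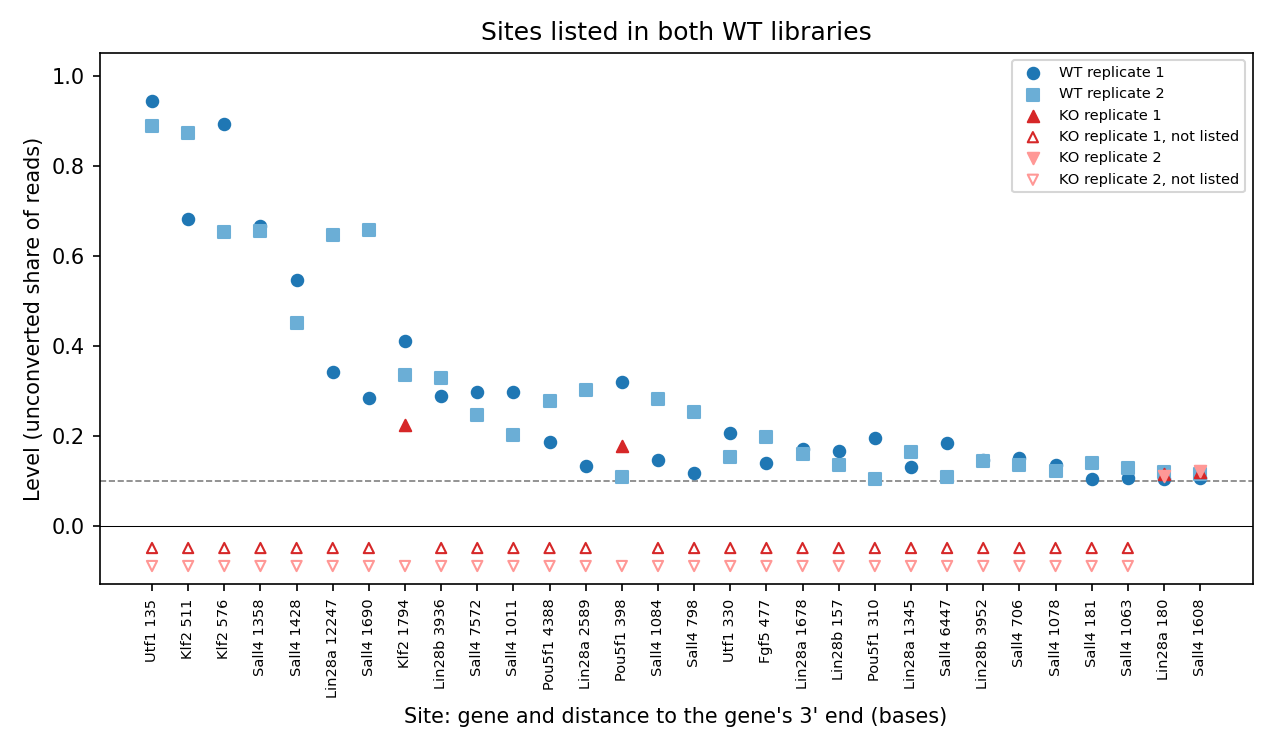
Level (unconverted share of reads, vertical axis) of the 30 sites listed in both WT libraries, ordered by mean WT level and named by gene and distance to the gene's 3' end in bases; circles and squares are WT, filled triangles KO. Open triangles below 0 mark a KO library that does not list the site, and the dashed line is the lowest level a list can hold; 26 sites have 2 open triangles.

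The highest shared level was in Utf1, at chromosome 7, 139524890, plus strand, 135 bases before the gene end. It was 0.944 in WT replicate 1 (101 of 107 reads, Wilson 95% interval 0.883 to 0.974) and 0.889 in WT replicate 2 (96 of 108 reads, 0.816 to 0.935). Neither KO list held it, where 59.6 and 34.8 reads were expected. No KO site lay close enough to show the coverage there: the nearest listed site was 184 bases away with 20 reads in KO replicate 1 and 607 bases away with 15 reads in KO replicate 2. The other Utf1 site shared by the WT libraries, at 139524695, had levels of 0.205 and 0.153 and was likewise in no KO list. Against this direction, 3 Utf1 positions stood higher in KO replicate 1 than in the WT library that listed them. These were 139524473 (0.203 in WT replicate 1, 0.304 in KO replicate 1), 139524512 (0.129 and 0.362) and 139524706 (0.136 in WT replicate 2, 0.550 on 20 reads in KO replicate 1).

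Klf2 held a pair of high sites towards its end. At chromosome 8, 73074924, plus strand, 576 bases before the gene end, the level was 0.893 on 56 reads and 0.652 on 46 reads in WT. At 73074989, 511 bases before the end, it was 0.681 on 47 reads and 0.873 on 71 reads. Neither position was in a KO list, although 28.0 and 23.0 unconverted reads were expected at the first and 30.9 and 25.4 at the second. KO replicate 1 listed a site 7 bases from the second position with 43 reads, so the place was covered in that library. Another Klf2 site, 73073706, 1794 bases before the end, had levels of 0.410 on 322 reads and 0.335 on 513 reads in WT and 0.223 on 157 reads (Wilson 95% interval 0.165 to 0.294) in KO replicate 1. KO replicate 2 did not list it but listed the position 14 bases on, 73073720, at 0.470 on 230 reads, where WT replicate 1 had 0.155 on 335 reads. At these neighbouring positions the KO libraries thus lay on both sides of WT, and neither could be tested across all 4 libraries. The highest Klf2 level in KO was 1.00 on 35 reads, at 73073592 in KO replicate 2, a position in no other list.

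In Sall4 the WT-shared sites clustered near the gene end, 11 of 13 within its last 1690 bases. The highest, at chromosome 2, 168591610, minus strand, 1358 bases from the end, had levels of 0.667 on 123 reads and 0.654 on 191 reads. In KO, 123 and 114 reads were expected and the site was in neither list, while KO replicate 1 listed a site 3 bases away with 121 reads and KO replicate 2 one 21 bases away with 44 reads. At 168591942 the WT libraries differed widely, 0.283 on 46 reads against 0.657 on 67 reads, and the site was again in no KO list. WT replicate 2 alone listed 168591561 at 0.894 on 142 reads. A well-covered low site, 168590433, had 0.104 on 939 reads and 0.139 on 1095 reads in WT and was unlisted in KO, where 810 and 757 reads were expected.

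Pou5f1 had 3 WT-shared sites. At chromosome 17, 35821271, plus strand, 398 bases before the gene end, the level was 0.320 on 97 reads (Wilson 95% interval 0.235 to 0.418) and 0.109 on 221 reads (0.0741 to 0.156) in WT. KO replicate 1 had 0.178 on 45 reads, between the WT values, and KO replicate 2 did not list it. The WT libraries thus differed from each other by more than KO replicate 1 differed from either; KO replicate 2 has no level here. The others, 35821359 at 0.195 and 0.104 and 35817281 at 0.185 and 0.278, were in no KO list. Close by, KO replicate 1 listed 35821354, 5 bases from the first, at 0.431 on 51 reads. KO replicate 2 listed 35817278, 3 bases from the second, at 0.438 on 16 reads. The single shared site of Fgf5, 98424412 on chromosome 5, lay 477 bases before the gene end. It had levels of 0.138 on 87 reads and 0.196 on 112 reads in WT. It was also in no KO list, where 58.8 and 53.8 reads were expected. KO replicate 2 listed 98424408, 4 bases away, at 0.161 on 56 reads.

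Nanog and Zfp42 held high levels too, but at positions listed once. In Zfp42, 43749012 on chromosome 8 stood at 0.975 on 80 reads in WT replicate 2. In Nanog, 122687646 on chromosome 6 stood at 1.00 on 48 reads in WT replicate 1, and 122689047 at 1.00 on 21 reads in KO replicate 2. Of 43 Nanog positions, 41 were in 1 list only. The KO libraries shared 122684714, at 0.102 on 49 reads and 0.276 on 29 reads, a position in neither WT list.

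Levels could be tested only where all 4 lists held a site with at least 20 reads, which left 2 sites of these genes, both near the 0.1 floor. A site that fell below 0.1 in KO would leave the lists and so the test. At these 2 sites little of a fall could therefore be seen. Sall4 168591860, 1608 bases from the gene end, had 0.106 and 0.115 in WT and 0.119 and 0.121 in KO, on 1289 to 1698 reads, with both KO values above both WT values. Its log2 change in the odds of an unconverted read was 0.14 (edgeR quasi-likelihood test, Benjamini-Hochberg adjusted p = 0.912). Lin28a 133730821, 180 bases from the gene end, had 0.104 and 0.120 in WT and 0.115 and 0.111 in KO, on 10493 to 21382 reads, and the groups overlapped. Its log2 change was 0.02 (adjusted p = 1). Neither passed the threshold of 0.05, also by the likelihood ratio test or limma on log2 odds, and 0 of the 2 had an unadjusted p under 0.05. Over all 1557 sites tested, 2.63% were lower in KO and 0% higher.

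**Figure D3:**
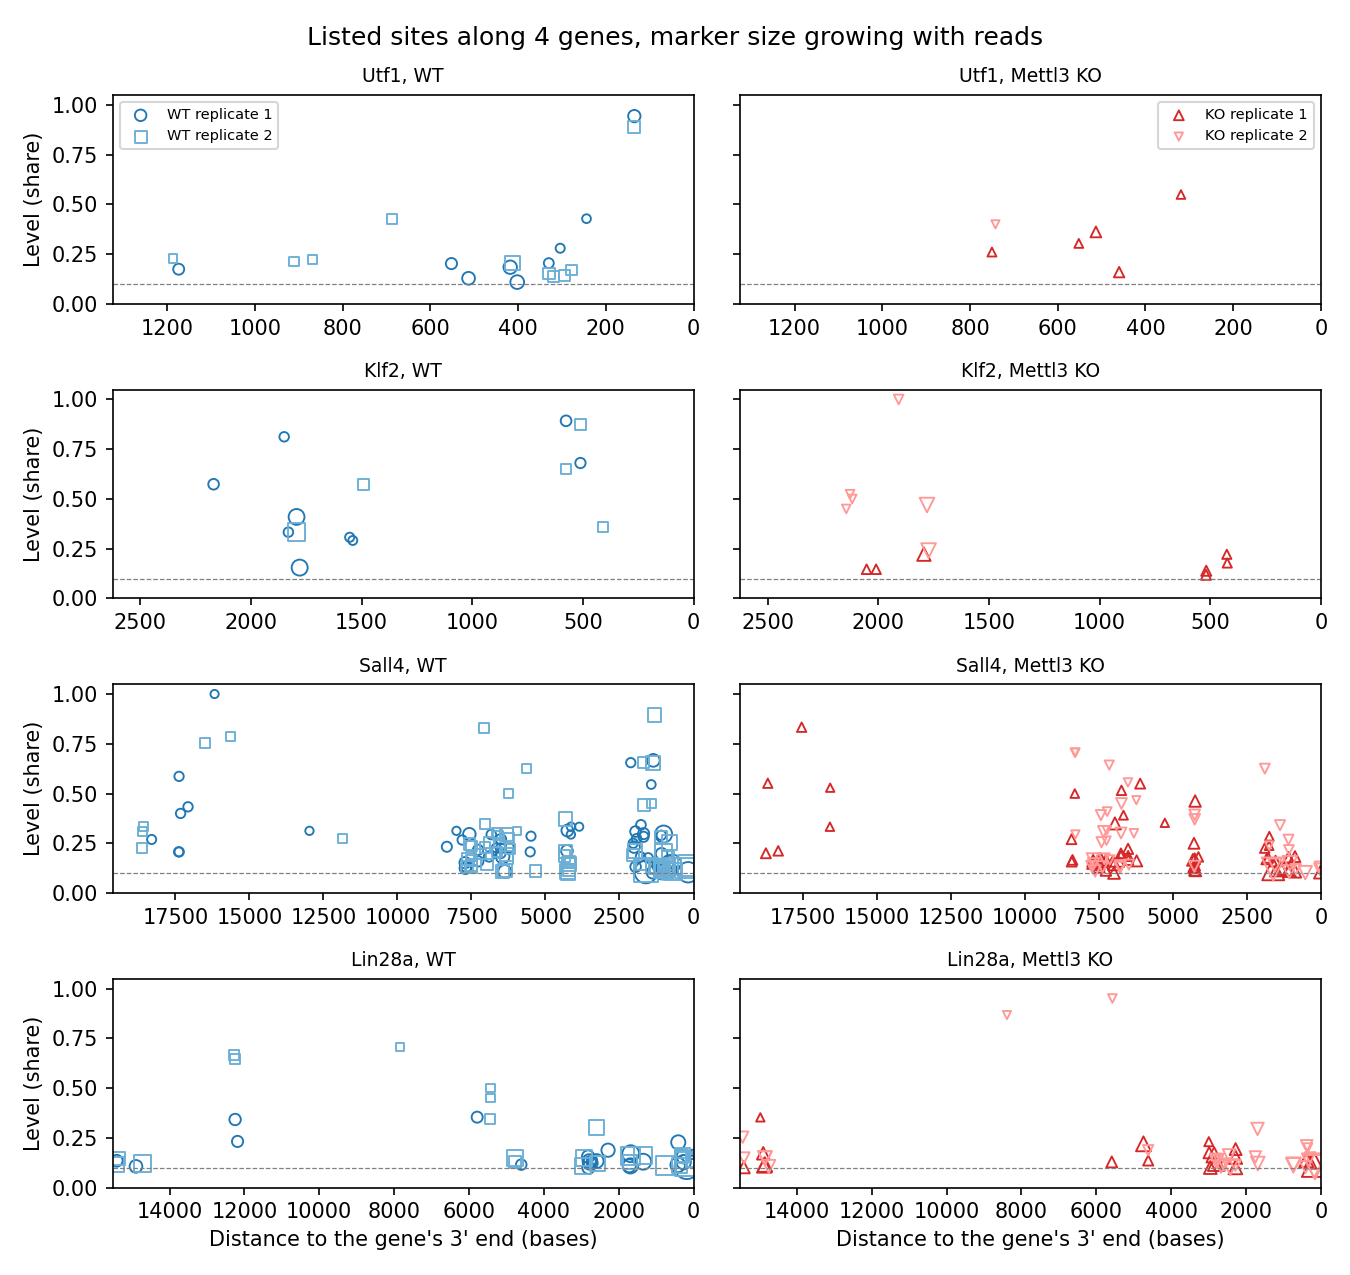
Level (share of unconverted reads, vertical axis) of each listed site in Utf1, Klf2, Sall4 and Lin28a against its distance to the gene's 3' end (bases, horizontal axis), WT libraries left and KO libraries right; marker size grows with reads and the dashed line is the 0.1 floor. The Utf1 site at 135 bases and the Klf2 sites at 511 and 576 bases are seen in both WT libraries and in neither KO library.

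By position, 12 of the 30 WT-shared sites (40.0%) lay within 1000 bases of the gene end, beside 31.9% over all genes, and 125 of the 609 sites listed once (20.5%), beside 18.2%. A listed site lay within 5 bases of another of the same library for 15.9% of these genes' entries and 15.8% of all. The bases around the sites were not analysed here.

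Coverage of the transcripts was compared next, and 4 of the genes were lower in the KO. Gene coverage is read here as the mean depth over a gene's positions, a reading that the files do not define and on which any comparison between genes rests, and it is given relative to the median gene of the same library. In bulk samples, fewer cells of a type and less RNA per cell cannot be told apart. Of the 10 genes, 8 had a coverage value in all 4 libraries, and 4 of the 8 passed the test as lower (limma, adjusted p under 0.05) and 0 as higher: Utf1, Fgf5, Lin28a and Pou5f1. Over all 8287 genes tested, 3.1% were lower (257 genes) and 2.65% higher (220), or 301 lower and 101 higher without centring on the median gene, which shifts the median change of all genes to -0.13. The median log2 change was -0.69 over the 8 genes and -0.02 over all genes. In 7 of the 8 both KO values lay below both WT values, as in 29.4% of all genes; 6 of the 8 had an unadjusted p under 0.05.

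Utf1 moved furthest. Its coverage was 1.58 and 1.41 times the median gene in WT and 0.833 and 0.561 times in KO. The groups did not overlap, and the log2 change was -1.13 ± 0.20 (SE, n = 2 a group, limma adjusted p = 0.0103). Fgf5 stood at 0.906 and 0.885 in WT and 0.535 and 0.564 in KO, a log2 change of -0.70 ± 0.16 (limma adjusted p = 0.0307). Pou5f1 stood at 0.924 and 1.12 in WT and 0.672 and 0.599 in KO, a log2 change of -0.68 ± 0.17 (limma adjusted p = 0.0464). Both the primed marker Fgf5 and the core factor Pou5f1 were lower in KO, with no overlap of the groups in either.

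Lin28a had by far the highest gene coverage of the 10 genes. It stood at 19.3 and 23.5 times the median gene in WT and 13.3 and 12.7 times in KO (log2 change -0.71 ± 0.17, limma adjusted p = 0.0371). Its reads were uneven: site 133730821, 180 bases from the gene end, had 15651 and 21382 reads in WT and 10493 and 12004 in KO. The median listed Lin28a site had 143 and 217 reads in WT and 122.5 and 103 in KO. How far the reads near the gene end set the rank and the change of Lin28a was not tested. Nanog, at 2.16 and 2.59 in WT and 1.66 and 1.27 in KO, had a log2 change of -0.70 ± 0.19 but missed the threshold (limma adjusted p = 0.0516). So did Klf2, at 1.02 and 1.26 in WT and 0.783 and 0.742 in KO (log2 change -0.57 ± 0.17, limma adjusted p = 0.0800). Sall4 (3.10 and 3.62 in WT, 2.69 and 2.89 in KO) had a log2 change of -0.27 with a 95% interval of -0.64 to 0.11. Lin28b (1.25 and 1.70 in WT, 1.43 and 1.11 in KO) was the one gene whose groups overlapped, at -0.21 with an interval of -0.65 to 0.23; these intervals leave room for a change as large as that of Klf2.

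**Figure D4:**
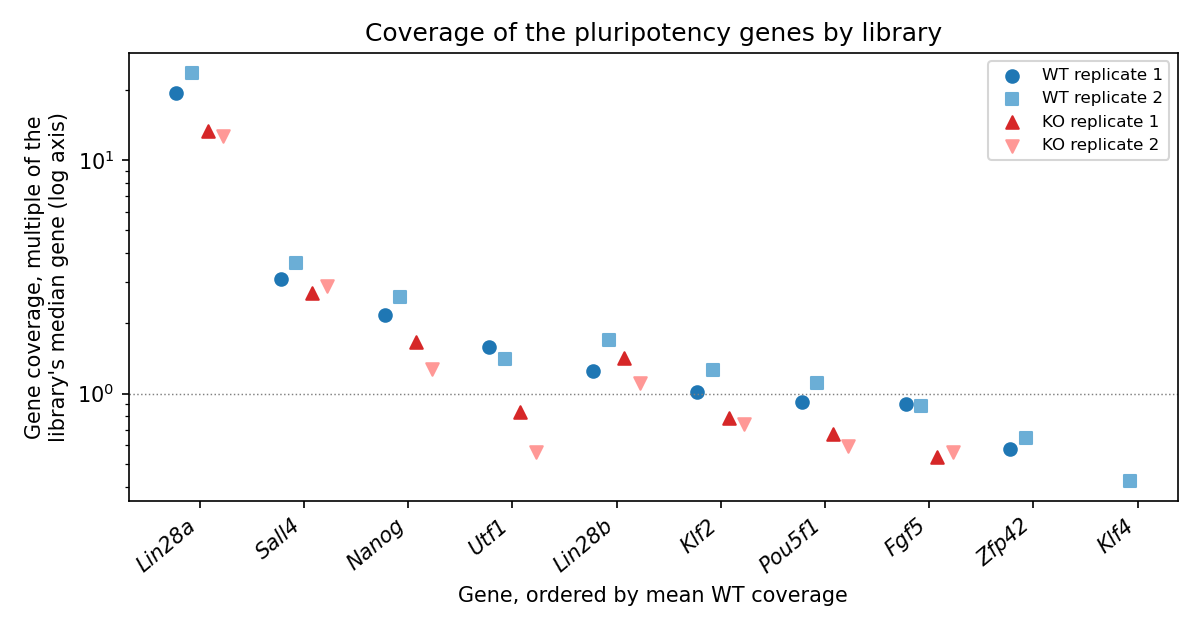
Gene coverage relative to the median gene of each library (vertical axis, logarithmic) for the 10 genes in order of mean WT coverage, 1 marker per library; the dotted line is the median gene. KO markers lie below both WT markers in 7 of the 8 genes with 4 values, Lin28b being the exception, and Zfp42 and Klf4 have no KO marker.

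The calls rest on all 4 libraries. Without WT replicate 2 or without KO replicate 1 only Utf1 was called, and without KO replicate 2 no gene of the 8 was; without WT replicate 1, 4 were called (Pou5f1, Nanog, Utf1 and Lin28a).

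Zfp42 had 0.581 and 0.649 times the median gene's coverage in WT and no value in KO, and Klf4 had 0.424 in WT replicate 2 and no value elsewhere. A value exists only where a site was listed, so a gene with few reads can lack one. In WT the order by mean coverage, on that per-length reading, was Lin28a, Sall4, Nanog, Utf1, Lin28b, Klf2, Pou5f1, Fgf5, Zfp42 and Klf4. The WT ranges of Utf1 and Lin28b, of Lin28b and Klf2, and of Klf2 and Pou5f1 overlapped; other neighbours did not, though Klf4 rests on 1 library. The conversion rate of unmodified adenosine, which sets how many unmethylated reads stay A, was 91.8% and 92.1% in WT and 98.0% and 91.0% in KO for Klf2. For Pou5f1 it was 96.4% and 96.2% in WT and 97.8% and 89.1% in KO, and for Utf1 94.5% and 95.3% in WT and 96.4% and 91.7% in KO; the median gene stood at 96.1% to 97.2%. The part of these rates in the listed sites was not tested.

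The promoters of the 4 genes that passed the coverage test are shown. Only the test's threshold sets these 4 apart: Nanog and Klf2, with log2 changes of -0.70 and -0.57, missed it. The 100 bases before each start, from RefSeq on GRCm38.p6, were searched for the GC box GGGCGG and its reverse complement CCGCCC, printed in capitals, and are given 5′ to 3′ on the gene's strand. They are Utf1 (chr7:139943756-139943855, plus), Fgf5 (chr5:98254084-98254183, plus), Pou5f1 (chr17:35505932-35506031, plus) and Lin28a (chr4:134018817-134018916, minus).
Utf1: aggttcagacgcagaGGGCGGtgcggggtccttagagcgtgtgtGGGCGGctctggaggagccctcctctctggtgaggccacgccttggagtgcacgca
Fgf5: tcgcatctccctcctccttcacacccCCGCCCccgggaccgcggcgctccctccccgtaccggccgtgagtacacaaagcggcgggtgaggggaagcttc
Pou5f1: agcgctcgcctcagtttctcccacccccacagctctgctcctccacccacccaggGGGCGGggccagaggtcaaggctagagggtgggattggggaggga
Lin28a: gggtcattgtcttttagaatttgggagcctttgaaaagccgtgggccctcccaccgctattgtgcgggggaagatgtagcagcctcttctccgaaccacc

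Utf1 held 2 matches, Fgf5 and Pou5f1 1 each and Lin28a none. Of the 9 genes with an entry, 4 held a match (the fourth being Zfp42, with 2), and 24.7% of 32851 promoter windows of the same length did. A match is a description of these letters only.

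Other pluripotency and early epiblast genes were read from a list of 40. Of 20 with coverage in all 4 libraries, 4 fell, 1 rose and 15 did not pass, with a median log2 change of -0.13. Pim2, a survival kinase (4.94 and 6.05 times the median gene in WT, 2.92 and 2.22 in KO), changed by -1.10 (limma adjusted p = 0.00945). Dnmt3l, a cofactor of de novo DNA methylation (1.42 and 1.28 in WT, 0.810 and 0.503 in KO), changed by -1.08 (limma adjusted p = 0.0181). Sox2, the partner of OCT4 that neural progenitors also express (12.1 and 12.6 in WT, 8.00 and 6.35 in KO), changed by -0.79 (limma adjusted p = 0.0266). Gdf3, a TGF-β family ligand (0.671 and 0.867 in WT, 0.471 and 0.482 in KO), changed by -0.68 (limma adjusted p = 0.0491). Of the 20 without a test, 6 had sites in both WT lists and none in KO, as Zfp42 did: Tfcp2l1, Dppa3, Tdgf1, Nodal, L1td1 and Fbxo15. A gene without a KO site has no KO coverage value, so it falls among the untested genes by definition. The share of such genes over all genes, whatever their number of sites, was not counted. Another 7 had no site in any list.

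Markers of other cell types moved as follows beside these changes. Of 7 retinal and anterior neural markers, 5 could be tested and 3 fell: Six3 (log2 change -3.01), Lhx2 (-2.81) and Hesx1 (-2.52), with limma adjusted p-values of 9.50e-06, 9.50e-06 and 0.000149. Rax held 20 and 35 sites in WT and none in KO, Six6 none anywhere, and Pax6 (0.12) and Sox1 (-0.16) did not pass. The summed coverage of this list was 33.8 and 35.4 times the median gene in WT and 8.34 and 7.97 in KO. Rax had no KO value, so it added 3.64 and 3.04 to the WT sums and nothing to the KO sums. Pax6 and Sox1, which did not pass, gave 2.61 and 2.09 of the sum in KO replicate 1, and 2.23 and 1.94 in KO replicate 2. The WT organoids thus carried eye-field markers, and the KO organoids carried less of them in sum. Of 16 markers of mesoderm and endoderm, extraembryonic endoderm, trophectoderm and germ cells, none had coverage in all 4 libraries. Their summed coverage per list was at most 0.460 times the median gene. In these lists in turn, 4 of 6, 3 of 4, 3 of 3 and 3 of 3 markers had no site in any library. A gene without a listed site has no coverage value and enters the sum as 0. The low sums therefore do not show that these cell types were absent. The part of such differences in cell makeup in the coverage of the pluripotency genes was not tested.

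In coverage over the 4 libraries, the genes most like Pou5f1 were Rb1, Stmn2 and Dcaf11. Their Euclidean distances were 0.17, 0.20 and 0.22 on the log2 scale centred per library, among 8286 genes with a median distance of 1.44. The scale is not centred per gene, so the distance reflects how highly a gene is covered as well as its change. No other of the 10 genes was among these 3, and a gene as highly covered as Lin28a could not be, whatever its change.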

How the data were processed

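The authors deposited 1 site list per library. Per the file headers each entry holds a count of A and G reads and a count of unconverted reads, their fraction (the level), an authors' p-value, and a coverage signal and conversion fraction of the gene. The submitters' processing notes name mm10, but only 3.32% of the lists' features begin within 1000 bases of their GRCm38 start, so coordinates are as the lists print them; aligner and deduplication are not given in the sources used here. Repeated positions were collapsed. Chromosome-wide coverage values, values shared by genes and genes with several values were left out.

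Counts of sites in all 4 lists were tested with edgeR 4.0.16 (a term per library and one for genotype) and log2 gene coverage, centred on the library median, with limma 3.58.1 in R 4.3.3, adjusted by Benjamini-Hochberg over all features; both were tested on simulated data. All 10 genes are named whatever their values; other genes of the list of 40 if they passed, except 1 not reported here, and the 3 nearest to Pou5f1. The genes and lists were chosen with earlier results of these data known. Depth limits precision: coverage per listed site had a median of 38 to 41 reads.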

Additional observations from a re-analysis of the deposited data

Results flagged for a closer look

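Sites on the strand opposite Sall4, within its span, appeared only in the KO lists: 3 in KO replicate 1 and 1 in KO replicate 2, beside 0 and 0 in WT. Lin28b went the other way, with 2 opposite-strand sites in WT replicate 2 and none in the other libraries. The share of all genes with opposite-strand sites in the KO lists alone was not worked out. These small counts are therefore a description only. The Sall4 sites are signal outside the comparisons above, which used the gene's own strand. The lists also name a feature, Gm14261, on that opposite strand.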

How the results depend on the processing

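The coverage calls depended most on the libraries: leaving out each in turn, 0 to 4 of the 8 genes were called. Under the other settings 3 to 5 were called, each lower: 5 without centring, with a pseudocount of 1 and with the replicate number as a block (which adds Nanog), and 3 with quantile normalization or with the most frequent of several gene values. Same-numbered libraries did not deviate together (correlation -0.03), so the numbers do not pair them. Over all genes, 257 fell and 220 rose; with the replicate block 295 and 285, and without KO replicate 1 53 and 43, without KO replicate 2 44 and 44, without WT replicate 2 114 and 107. The balance turned to more rises than falls without WT replicate 1 (188 and 211) and with quantile normalization (203 and 239). Leaving out each library, the log2 change of Lin28b ranged from -0.44 to 0.0165, turning sign without WT replicate 2. No member site was called under any setting of the level test on all 4 libraries, the block included (0 sites). Each setting used only sites listed in every library, so a site that fell below 0.1 in KO could not be called. The KO to WT ratio of site counts ranged from 0.599 to 0.782 and of sites of clear level from 0 to 0.563. Under the planned settings on all 4 libraries, 81.8% to 90.9% of WT-shared sites were in neither KO list. Over other genes this was 81.1% to 86.2%. Leaving out a library changes what is counted, to sites of 1 WT list or to absence from 1 KO list. Those shares ran from 86.2% to 93.1%, beside 89.6% to 91.0% over other genes. Sites below a level of 0.1 are unseen, and with 2 libraries a group no exact test can pass 0.05.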
